A study of Mus musculus with 26 samples.

Results

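Tmtc1, Adgra2, Pigk, Zan, Ankrd44, Nt5e and Acp5 were among the genes whose RNA rose most clearly when mouse embryonic stem cells were moved from leukemia inhibitory factor (LIF) to retinoic acid (RA), although none of them is among the 10 known RA targets used here as a check. The 7 genes were chosen from the 2189 genes of the authors' deposited RNA-seq comparison by that rise, so their levels and changes are a description and carry no test here. Ordered by the Wald statistic, the log2 fold change divided by its standard error, they held place 3 and places 6 to 11. The other genes among the first 11 were Stra8, Cyp26a1, Nrip1 and Aqp3. Acp5 was the last of the 7 with a Wald statistic of 20.0, and Dusp9, just outside, had 19.7. For each gene the deposited level, change and standard error were taken, together with the ATAC-seq peaks and dynamic enhancer regions inside the gene or within 100 kb of it.

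All libraries came from E14, an established line of mouse embryonic stem cells grown without feeder cells. Cells were kept for 48 h in medium with LIF, and for the last 4 h they received fresh medium with LIF (mESC+) or, without LIF, with 1 µM RA (mESC−). RA addition and LIF withdrawal therefore cannot be told apart. RNA-seq had 3 biological replicates per state, while ATAC-seq and each ChIP-seq mark had 1 library per state, so differences in accessibility or enhancer probability have no replicate check. Of 10 known RA targets, 9 were in the deposited RNA table and all 9 had a positive change, which set the direction of the comparison, and Crabp2 was not listed. Of 6 pluripotency markers, only Zfp42, Sox2 and Klf4 were listed, with mean normalized counts of 18458, 8169 and 2847. Their changes were -0.28 ± 0.09, -0.33 ± 0.09 and -0.84 ± 0.11 (log2 ± SE). Of 4 primitive endoderm markers only Gata6 was listed, with a rise of 2.63 ± 0.34 (log2 ± SE) at a mean normalized count of 54.1. Only Kdr of 3 mesoderm markers and only Thy1 of 3 fibroblast feeder markers were listed. Kdr and Thy1 fell by 1.08 each on the log2 scale, and no neural marker was listed.

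RA enters the nucleus and binds RAR, which pairs with RXR on DNA at direct repeats of a short half-site. Without ligand the pair holds corepressors, and with ligand it exchanges them for coactivators, so that genes next to such sites can respond within hours. In stem cells RA starts differentiation and switches on genes for its own breakdown and for positional identity. The 7 genes described here have other known roles. Adgra2 is an adhesion G protein-coupled receptor that acts with Reck as a coreceptor for Wnt7 ligands. Nt5e is a cell-surface nucleotidase that makes adenosine from AMP and is held in the membrane by a glycosylphosphatidylinositol (GPI) anchor. Pigk is the catalytic subunit of the GPI transamidase, the enzyme that attaches such anchors to proteins. Zan encodes zonadhesin, a sperm protein that binds the egg coat. Acp5 is a tartrate-resistant acid phosphatase best known from osteoclasts and macrophages. Tmtc1 is an endoplasmic reticulum protein of a family that adds mannose to cadherins. Ankrd44 is an ankyrin repeat subunit of protein phosphatase 6.

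Adgra2 had the largest rise of the 7 genes, 4.54 ± 0.19 (log2 fold change ± SE, 3 libraries per state), or 23.3-fold. Its deposited level was a mean normalized count of 399 over the 6 libraries. That mean and the fold change imply about 32.8 normalized counts in mESC+ and 765 in mESC−, so the receptor gene was low with LIF. The surface enzyme Nt5e rose by 2.61 ± 0.13 (log2 ± SE), or 6.10-fold, at a mean normalized count of 720, with implied levels of 203 and 1237. Both proteins are exposed on the cell surface, but their starting levels differed. Single-library values are not analysed here, since the authors' deposited table holds the mean and the comparison only, and the implied levels assume that the mean weights both states equally.

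Zan, a gene with a known role in sperm, rose by 4.24 ± 0.20 (log2 ± SE), or 18.9-fold, with a mean normalized count of 349 and implied levels of 35.1 in mESC+ and 662 in mESC−. Acp5 rose by 3.24 ± 0.16 (log2 ± SE), or 9.47-fold, at a mean normalized count of 313, with implied levels of 59.8 and 566. These were the lowest mean counts among the 7 genes. Ankrd44 rose by 2.92 ± 0.14 (log2 ± SE), or 7.55-fold, at a mean normalized count of 496, from an implied 116 to 875. Tmtc1 and Pigk had the highest mean counts. Tmtc1 rose by 2.68 ± 0.09 (log2 ± SE), or 6.41-fold, at a mean normalized count of 1298, from an implied 350 to 2245. Pigk had the smallest change, 1.96 ± 0.08 (log2 ± SE) or 3.89-fold, and the highest mean normalized count, 2509, with implied levels of 1027 and 3992. All 7 genes had the lowest adjusted p in the authors' deposited table, 1.92e-14 from DESeq2, a value that they share with 247 genes in all and that was among the values they were chosen by. Of the 2189 listed genes, 49.8% were higher with RA at an adjusted p under 0.05.

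**Figure D1:**
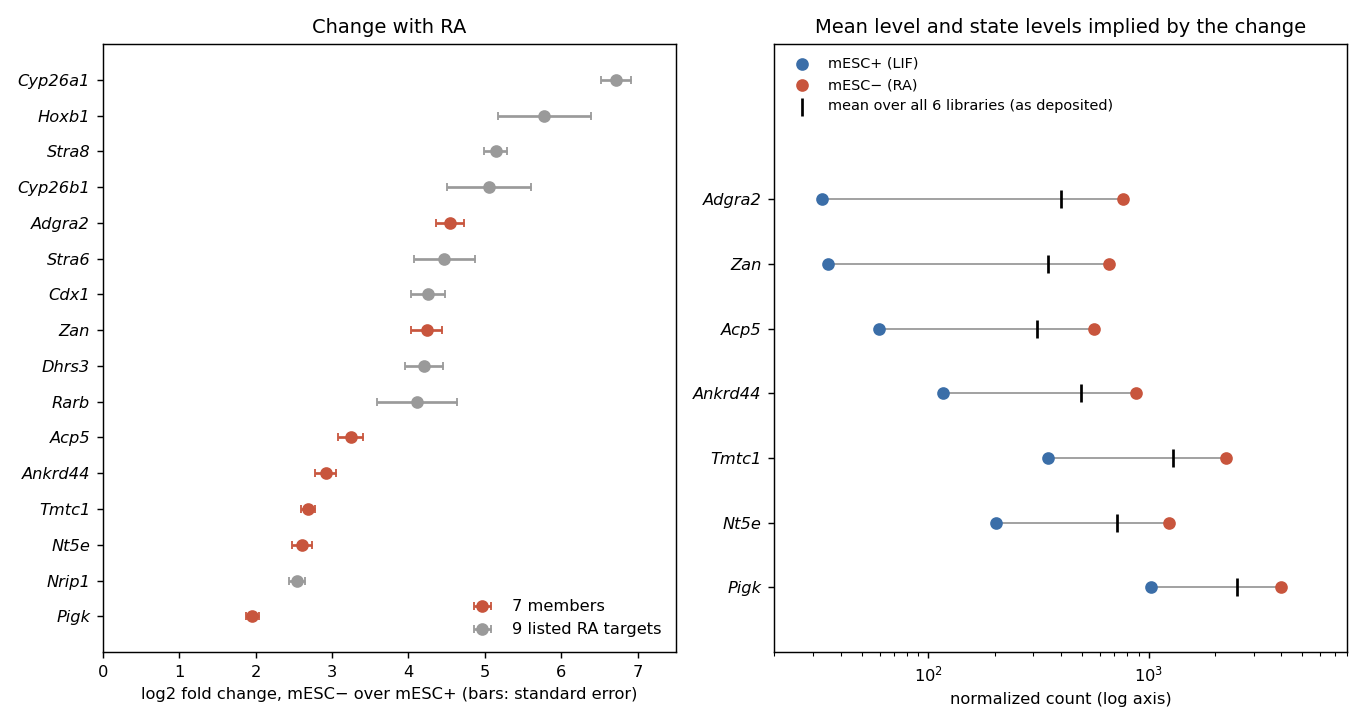
Left, log2 fold change of RNA in mESC− over mESC+ with its standard error for the 7 genes (red) and the 9 listed RA targets (grey). Right, the deposited mean normalized count of each gene (black mark) and the state levels implied by its change, on a log axis. By change, Adgra2 lies between Cyp26b1 and Stra6, Zan lies between Cdx1 and Dhrs3, Pigk lies below Nrip1, and the levels with RA span 566 to 3992.

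In order of change the 7 genes ran Adgra2, Zan, Acp5, Ankrd44, Tmtc1, Nt5e, Pigk. Zan lay above Acp5 by 1.00 on the log2 scale (SE of the difference 0.26), and Nt5e above Pigk by 0.65 (SE 0.15). The other 4 neighbouring pairs differed by 0.07 to 0.33 with standard errors from 0.16 to 0.27, less than 2 standard errors in each pair. These gaps come from the values that chose the genes and are a description of their spread, not a test. Among all listed genes the same 7 held places 20 (Adgra2), 30 (Zan), 52 (Acp5), 72 (Ankrd44), 82 (Tmtc1), 93 (Nt5e) and 171 (Pigk) by log2 fold change. Choosing by the Wald statistic favors precise changes, and the 7 differed in precision from others of that size. The 171 genes with a change at least as large as Pigk had a median standard error of 0.50 (log2) and a median mean normalized count of 27.5, whereas the 7 had standard errors from 0.08 to 0.20.

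By change, the gene most like each of the 7 was taken as the listed gene next above and next below it, a likeness over 1 comparison of 2 states. Adgra2 stood between Tlx2 (4.70 ± 1.44, log2 ± SE) and Hoxb2 (4.50 ± 1.29), and Zan between Gm7789 (4.24 ± 0.57) and Dhrs3 (4.20 ± 0.25). Acp5 lay between Cidea (3.29 ± 0.33) and Gdpd5 (3.24 ± 0.33), and Ankrd44 between Gm40578 (2.95 ± 0.77) and Zfp703 (2.88 ± 0.42). Of these neighbours only Dhrs3, which reduces retinaldehyde, came close to its member in precision. Tmtc1 stood between Grm2 (2.69 ± 0.20) and Cpvl (2.68 ± 0.66), Nt5e between H60c (2.61 ± 0.91) and Pou2f2 (2.60 ± 0.14), and Pigk between Gcm1 (1.96 ± 0.24) and Gfra3 (1.95 ± 0.64). The neighbours' standard errors were 1.12 times (Pou2f2) to 7.70 times (Gfra3) those of the genes beside them.

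**Figure D2:**
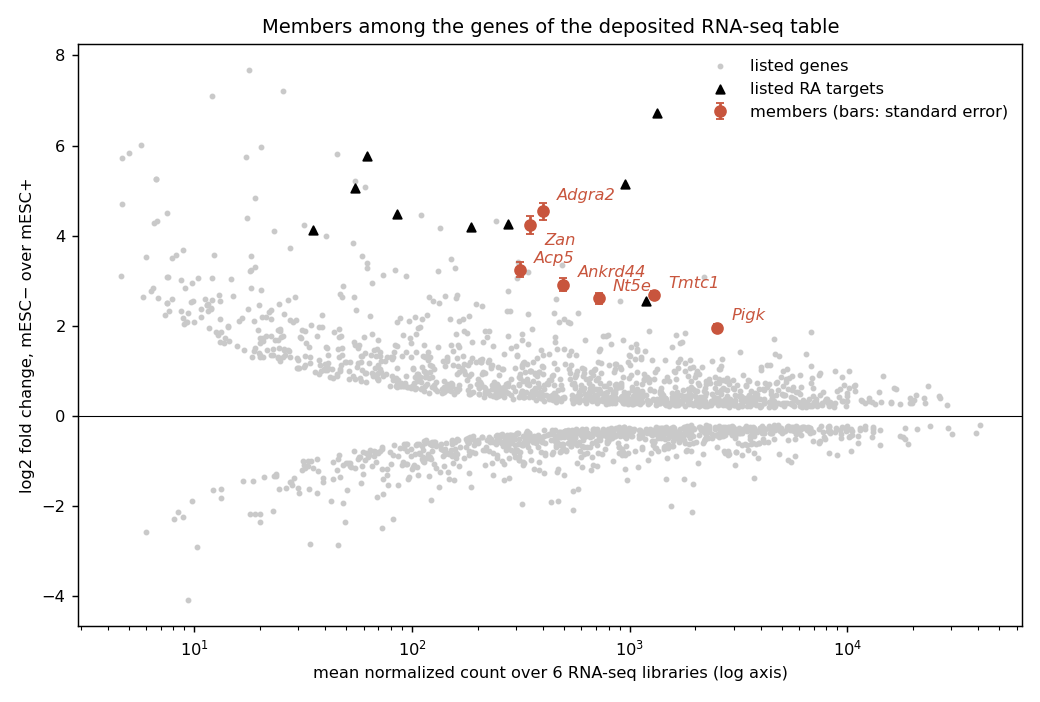
Each grey point is 1 of the 2189 listed genes, placed by its mean normalized count over the 6 RNA-seq libraries (log axis) and its log2 fold change in mESC− over mESC+. Triangles are the listed RA targets and red points the 7 genes with their standard errors. The 7 lie in the upper part of the cloud between mean counts of 313 and 2509, from 4.54 for Adgra2 down to 1.96 for Pigk.

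Levels can be compared between genes only after division by length, since a long transcript collects more reads. Per kb of annotated exon, the implied level in mESC− was highest for Pigk (420 normalized counts per kb), followed by Acp5 (279), Tmtc1 (262), Nt5e (144), Adgra2 (133), Ankrd44 (61.7) and Zan (33.4). In mESC+ the order was Pigk (108), Tmtc1 (40.8), Acp5 (29.4), Nt5e (23.6), Ankrd44 (8.18), Adgra2 (5.69) and Zan (1.77). Adgra2 passed Ankrd44 and Acp5 passed Tmtc1 between the states. No spread over libraries comes with these levels, so neighbours in either order cannot be separated.

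Partners of the 7 proteins were looked up in the same RNA table, which holds 9.04% of protein-coding genes, with 4.41% higher with RA and 3.26% lower at an adjusted p under 0.05. Pigk was the only one of 5 GPI transamidase subunits in the RNA table, and of 21 genes for making the anchor only Pgap1 was listed, at -0.30 ± 0.08 (log2 ± SE). Since the deposited table holds only genes with an adjusted p up to 0.1, an absent gene is one that did not reach this limit or was not tested. Among 20 GPI-anchored proteins, 13 were listed, of which 4 were higher with RA and 8 lower at an adjusted p under 0.05. Those higher were Nt5e itself, Gfra1 (1.56), Folr1 (1.04) and Alpl (0.82), and those lower ranged from Tdgf1 (-0.35) to Gfra2 (-2.36), as log2 fold changes. Nt5e acts among enzymes and receptors for extracellular purines, and of 11 others Adora2b, an adenosine receptor, rose by 1.31 ± 0.21, and Alpl, which also cleaves AMP, rose by 0.82 ± 0.09 (log2 ± SE). In the same list the nucleoside transporter Slc29a1 fell by 0.23 and the ectonucleotidase Enpp3 by 0.33 on the log2 scale.

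Adgra2 had 8 family members and Wnt7 partners on its list. Wnt7b rose by 0.47 ± 0.15 (log2 ± SE, adjusted p = 0.0318 in the authors' DESeq2 comparison), Fzd4 had 0.47 ± 0.17 at an adjusted p of 0.0835, and its coreceptor partner Reck was not listed. Tmtc1 was the only one of 4 TMTC genes listed, and of 5 other O-mannosylation genes only Pomgnt2 rose, by 0.71 ± 0.14. Of 6 other protein phosphatase 6 genes only Ankrd28, a sister subunit of Ankrd44, was listed, at 0.28 ± 0.08. Of 5 other acid phosphatases only Acp6 was listed, with a rise of 0.81 ± 0.08. Of 8 other egg coat binding genes only Adam1a was listed, with a rise of 0.81 ± 0.23 (log2 ± SE). Each of these changes was smaller than that of the gene it accompanies. The accompanied genes were chosen by their clear rise in this same comparison. Smaller changes in their partners were therefore likely from that choice alone, and the order is a description, not a test. The median change of all listed genes that rose was 0.78 on the log2 scale.

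Enhancer regions that change between the states were available as 327 dynamic regions, called by the authors from H3K4me1, H3K4me3 and H3K27ac with a probability between 0 and 1 in each state. Cluster 2 holds the 141 regions gained in mESC− and cluster 1 the 186 regions lost. A cluster 2 region lay inside or within 100 kb of 2 of the 7 genes, Tmtc1 and Zan, against 2.56% of 21938 protein-coding genes. The share was 12.5% (10.6 to 14.6, exact 95% interval) among the 1090 genes listed as risen and 18.7% (13.2 to 25.4) among the 171 with a change at least as large as Pigk. With 7 genes the interval of their own share ran from 3.67 to 71.0%, so it cannot be set apart from that of the other strong responders, and the windows of the 7 were longer, with a median of 298 kb against 217 kb for all protein-coding genes.

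The Tmtc1 region lies in an intron, at chr6:148291601-148292900 (GRCm38), 152 kb from the gene start. The authors' enhancer probability went from 0 with LIF to 0.871 with RA there, with a lowest p of 0.00884 in the authors' permutation test. No ATAC-seq peak of either list overlapped it. The nearest peak ended 267 bp away in the LIF list and 275 bp away in the RA list, at the 76.4th and 65.8th percentile of fold enrichment in its list. The closest protein-coding start was that of Ergic2, 79.9 kb away, a gene that is not in the RNA table. The Zan region lies in an intron too, at chr5:137445401-137445900, 31.4 kb from the gene start. Its probability went from 0 to 0.761, with a lowest p of 0.0195. Both lists had a peak there, at the 36.3rd percentile in the LIF list and the 30.1st in the RA list, so the gain in probability came without a higher rank in accessibility.

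Ankrd44 went the other way. Its only dynamic region within 100 kb was a cluster 1 region in an intron, at chr1:54677401-54677900, 249 kb from the start, whose probability fell from 0.89 to 0.0432 while the RNA rose 7.55-fold. A cluster 1 region lay within 100 kb of 2.11% of protein-coding genes and of 1.38% (0.772 to 2.26) of listed risen genes. No peak overlapped the Ankrd44 region, and the nearest one, 78 bp away in the LIF list and 96 bp in the RA list, stayed at the same rank (85.6 and 85.7). The other 4 genes had no dynamic region within 100 kb. The nearest cluster 2 region was 240 kb from Adgra2, at chr8:26843601-26845600 with a probability of 0.99 in mESC− and its closest protein-coding start that of Zfp703. The paper used this region as its example of an RA-specific enhancer, citing a retinoic acid receptor motif, occupancy and a higher ATAC-seq signal. In the paper's reporter assay the region had RA-specific activity. Which gene it acts on was not tested here. For Acp5 the nearest cluster 2 region was 276 kb away, at chr9:21844001-21850700 inside Dock6, with a probability of 0.98. For Ankrd44, Nt5e and Pigk it was 5717 kb, 14999 kb and 116963 kb away.

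ATAC-seq marks open chromatin, and the authors called peaks in each library separately. A peak was called list-only if no peak of the other list overlapped it by at least 1 bp. The windows of the 7 genes held 265 peaks of the LIF list and 254 of the RA list. Of these, 54 (20.4%) were in the LIF list only and 49 (19.3%) in the RA list only, against 26.1% and 14.1% over the whole lists. Every one of the 7 genes had an RA-list-only peak within 100 kb, but so did 82.8% of protein-coding genes and 96.1% of listed risen genes. RA-list-only peaks were mostly weak, with a median at the 18.9th percentile of the list over all of them. Around the 7 genes the median per gene ran from the 12.6th (Acp5) to the 36.4th percentile (Adgra2).

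Pigk, with a window of 466 kb, had the most by number. It had 15 RA-list-only peaks among 40 (37.5%, 22.7 to 54.2, exact 95% interval that covers counting error only), and the other 6 genes had 3 to 7 each, or 13.5 to 18.4% of their RA-list peaks. Per 100 kb of window, however, Acp5 had 3.35 RA-list-only peaks and Pigk 3.22, and the other 5 genes had 1.23 to 2.35. In Pigk 13 of the 15 lay within 100 kb of the gene start, whereas all 9 LIF-list-only peaks lay farther along, between 102 and 280 kb from the start. Most of these 9, and the RA-list-only peaks beyond 100 kb, also lay inside St6galnac5, a protein-coding gene on the opposite strand. Zan had 17 LIF-list-only peaks among 60 (28.3%) and 7 RA-list-only peaks among 49 (14.3%), close to the shares over the whole lists. Ankrd44 had 9 and 6, Acp5 6 and 7, Adgra2 4 and 5, Tmtc1 6 and 6 and Nt5e 3 and 3, as LIF-list-only and RA-list-only peaks. The split in Pigk was noticed after the values were seen and compares single libraries.

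**Figure D3:**
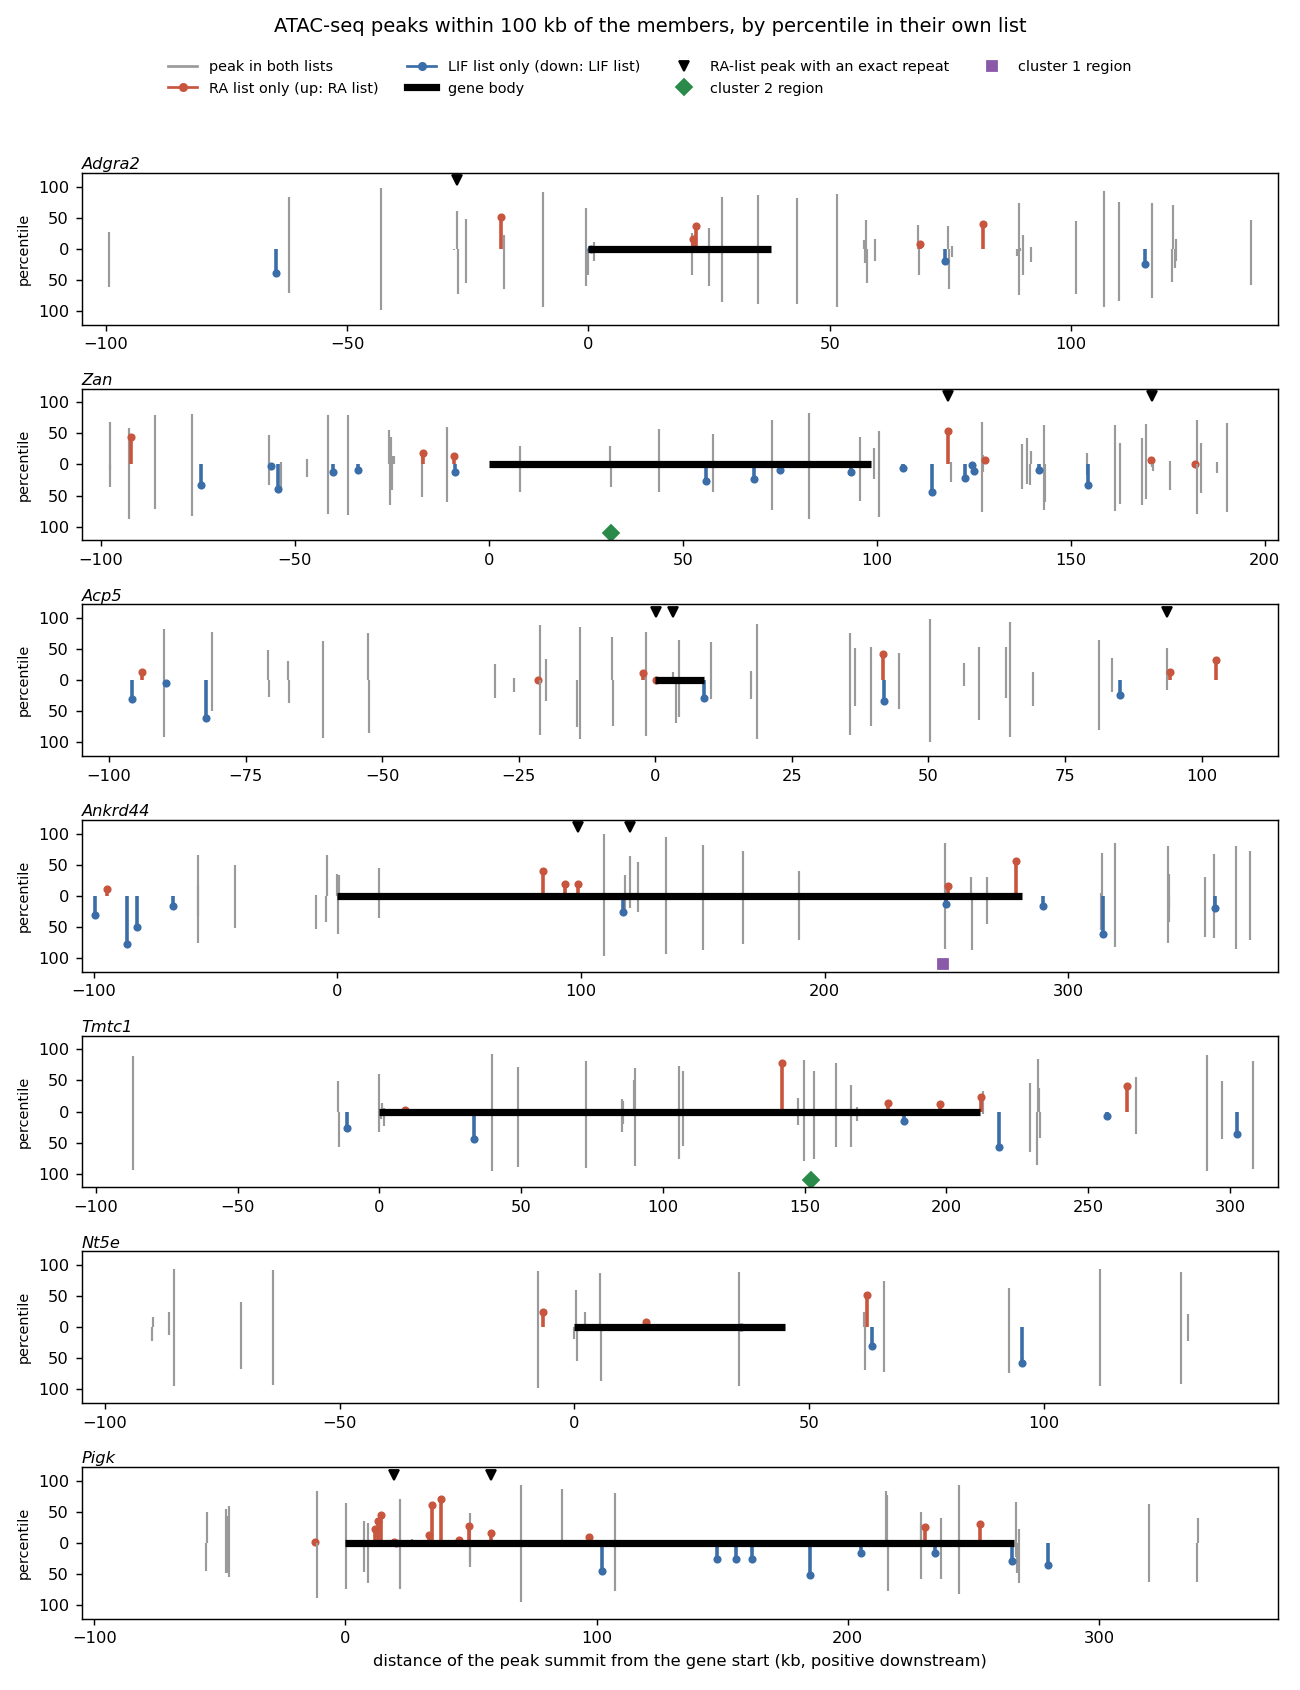
Each panel shows 1 gene, with the distance of a peak summit from the gene start in kb (positive downstream) on the horizontal axis and the percentile of its fold enrichment within its own list on the vertical axis, upward for the RA list and downward for the LIF list. Grey lines are peaks found in both lists, red and blue lines peaks of 1 list only, black bars the gene bodies, triangles RA-list peaks with an exact direct repeat, diamonds cluster 2 and squares cluster 1 regions. Red lines crowd the first 100 kb of Pigk, and the tallest red line, at the 78.3rd percentile, lies inside Tmtc1.

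Strong RA-list-only peaks were rarer. At a −log10 q of at least 10, such a peak lay within 100 kb of 2 of the 7 genes (3.67 to 71.0%), Tmtc1 with 1 and Pigk with 3. The share was 4.55% of protein-coding genes, 11.7% (9.81 to 13.7) of listed risen genes and 20.5% (14.7 to 27.3) of the 171 strongest by change. The Tmtc1 peak had a 9.99-fold enrichment (78.3rd percentile) and sat in an intron 142 kb from the start, near the cluster 2 region. In Pigk the strongest had an 8.63-fold enrichment (70.0th percentile), 38.2 kb into the gene. The strongest RA-list-only peaks by −log10 p of the other genes lay in the middle of the list. They had a 7.11-fold enrichment for Ankrd44, 6.93-fold for Zan, 6.71-fold for Nt5e, 5.94-fold for Acp5 and 5.74-fold for Adgra2. In the LIF list, Ankrd44 had the strongest list-only peak of the 7 genes, at 10.1-fold in an intron of Sf3b1.

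At the gene starts the picture was mixed. A peak within 500 bp of the start was found in both lists for 5 genes. By fold enrichment, the highest such peak rose from the 33.5th percentile in the LIF list to the 59.7th in the RA list for Tmtc1. It went from 59.5 to 66.3 for Adgra2 and from 53.6 to 60.0 for Nt5e. It went down for Ankrd44 (60.6 to 35.5) and for Pigk (73.5 to 64.0), although the RNA of both rose. Nt5e also had a weaker peak in both lists nearer its start, with summits 81 bp (LIF list) and 106 bp (RA list) before it. That weaker peak went the other way, from the 18.5th to the 0.397th percentile. All peaks shared by the lists had a median change of -2.88 percentile points, so a small fall is the usual case. At Adgra2 the single RA-list peak covers 2 adjacent LIF-list peaks, of which the higher is ranked here. At Ankrd44 and Tmtc1 the single LIF-list peak overlaps more than 1 RA-list peak, and the highest of those is ranked. For these 3 genes the peaks compared therefore differ in extent. Zan had no peak at its start in either list, and Acp5 had only a weak RA-list-only one, 109 bp into the gene, at 2.59-fold (0.029th percentile). Promoter sequences from RefSeq (GRCm38.p6, 250 bases before to 50 after the start) were found for 5 of the 7 genes. Those of Ankrd44, Tmtc1 and Nt5e were rich in GC (76.3, 72.3 and 71.0%, with 37, 30 and 23 CpG), whereas Zan had 47.3% and 4 CpG and the Acp5 start used here 48.7% and 4, against medians of 52.7% and 7 over 32851 promoters. Acp5 has 2 further promoters in that table. One of them, at 64.0% and 17 CpG and inside the gene body, overlaps a peak in each list. The peak stood at the 68.4th percentile in the LIF list and the 63.9th in the RA list. However, the RA-list peak overlaps 2 LIF-list peaks and has its summit outside this promoter. The other further promoter has 54.7% and 7 CpG.

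**Figure D4:**
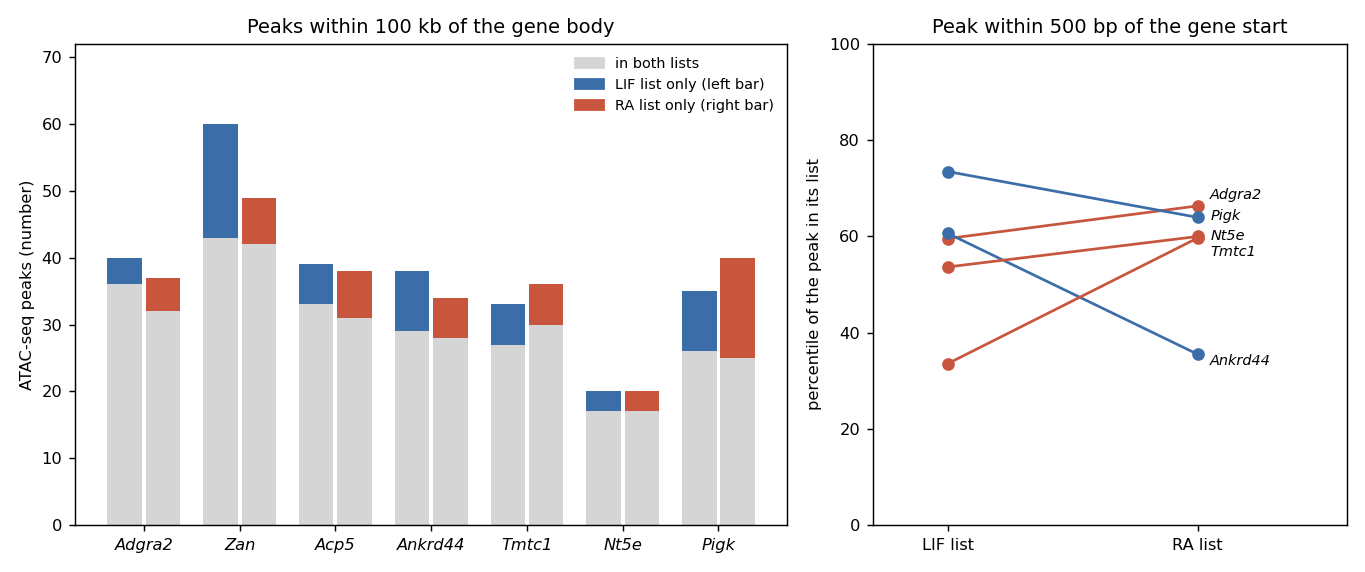
Left, number of ATAC-seq peaks within 100 kb of each gene in the LIF list (left bar) and the RA list (right bar), divided into peaks found in both lists (grey) and in 1 list only (colored). Right, percentile of the highest peak within 500 bp of the gene start in each list, for the 5 genes with a peak in both. Red marks genes where it is higher in the RA list and blue those where it is lower. Pigk has 15 RA-list-only peaks. The highest peak at the start ranks higher in the RA list for Tmtc1, Adgra2 and Nt5e and lower for Ankrd44 and Pigk.

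Peaks present in both lists could still differ in rank. Of 205 shared RA-list peaks around the 7 genes, 17 (8.29%) ranked more than 20 percentile points higher in the RA list and 31 (15.1%) more than 20 points lower, against 6.77% and 17.1% of all shared peaks. The largest rise was inside Pigk, 86.1 kb from the start, where a peak went from the 6.95th to the 86.5th percentile and from 3.93-fold to 11.7-fold enrichment within its library. Ankrd44 had a peak 120 kb from its start that went from 19.8 to 63.9, and Acp5 one 93.7 kb from its start, in an intron of Elavl3, that went from 15.9 to 51.7. Nt5e had one in its own exon sequence 2.17 kb from the start that went from 2.24 to 23.7. By gene, rises and falls numbered 5 and 2 among 31 shared peaks for Acp5, 4 and 7 among 28 for Ankrd44, 4 and 2 among 30 for Tmtc1, and 2 and 3 among 25 for Pigk. They numbered 1 and 2 among 17 for Nt5e, 1 and 10 among 42 for Zan, and 0 and 5 among 32 for Adgra2.

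Direct repeats were built from the half-site AGGTCA, its known variant AGTTCA, the form with a first base of G in place of A, which is GGGTCA, and the same form of the variant, which is GGTTCA. They were spaced by 1, 2 or 5 bases as RAR and RXR are known to bind them, and searched on both strands in 300 bp around each summit. A run of half-sites can give overlapping matches. An exact repeat was found in 1.24% of all RA-list peaks, in 3.07% of RA-list-only peaks, in 0.587% of LIF-list-only peaks and in 0.588% of RefSeq promoters. Around the 7 genes it was found in 5 of 49 RA-list-only peaks (10.2%, 3.40 to 22.2, exact 95% interval) and 2 of 54 LIF-list-only peaks (3.70%, 0.452 to 12.7). Zan, Acp5, Ankrd44 and Pigk had an RA-list-only peak with an exact repeat, 4 of 7 genes (18.4 to 90.1%). The share was 8.4% of protein-coding genes, 18.3% (16.1 to 20.8) of listed risen genes and 23.4% (17.3 to 30.5) of the 171 with a change at least as large as Pigk. Counting all RA-list peaks, Adgra2 joined them, 5 of 7 (29.0 to 96.3%). That compares with 22.8% of protein-coding genes, 46.6% (43.6 to 49.6) of listed risen genes and 52.6% (44.9 to 60.3) of those 171. Both intervals of the 7 include the share of those 171, so the 7 cannot be set apart from them. The windows of the 7 were also longer, with a median of 298 kb against 212 kb for the 171. A match is a description of the letters and not a binding site, and no match was found in the promoter sequences of the 5 genes.

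The RA-list-only peaks that carry the clearest repeats, and the highest ones by −log10 p of Tmtc1 and Nt5e, with 1 mismatch, are shown to let the half-sites be read in place. Each is the plus strand of GRCm38, 5′ to 3′, over the peak and any match of the 300-bp window that lies outside it. Capitals mark the half-sites of exact matches, or of the match with 1 mismatch where an element has no exact one. Further matches with 1 mismatch are left in lower case. Half-sites read as reverse complements (TGACCT, for example) where the repeat is on the minus strand.
Zan, intron of Ephb4, chr5:137358513-137358640: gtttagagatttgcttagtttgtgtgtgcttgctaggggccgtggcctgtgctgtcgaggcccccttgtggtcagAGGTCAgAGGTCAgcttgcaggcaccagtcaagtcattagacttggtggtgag
Ankrd44, intron, chr1:54827469-54827603: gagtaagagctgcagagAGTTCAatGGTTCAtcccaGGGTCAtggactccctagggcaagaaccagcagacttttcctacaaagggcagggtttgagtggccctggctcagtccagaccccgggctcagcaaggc
Pigk, intron 57.9 kb from the start, chr3:152771879-152772074: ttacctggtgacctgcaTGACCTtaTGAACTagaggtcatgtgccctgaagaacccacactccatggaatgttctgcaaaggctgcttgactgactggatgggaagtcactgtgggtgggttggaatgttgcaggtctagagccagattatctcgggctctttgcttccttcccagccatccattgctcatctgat
Pigk, intron 19.2 kb from the start, chr3:152733193-152733400: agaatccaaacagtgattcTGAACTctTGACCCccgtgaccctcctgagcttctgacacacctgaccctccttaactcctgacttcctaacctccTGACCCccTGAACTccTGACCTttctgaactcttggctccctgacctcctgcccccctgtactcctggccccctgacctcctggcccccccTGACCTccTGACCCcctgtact
Tmtc1, intron, chr6:148302392-148302588: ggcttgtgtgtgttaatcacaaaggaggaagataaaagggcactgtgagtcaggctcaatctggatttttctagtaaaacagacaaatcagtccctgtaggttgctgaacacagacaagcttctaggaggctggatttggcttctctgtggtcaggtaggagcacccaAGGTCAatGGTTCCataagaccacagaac
Nt5e, intron of Snx14, chr9:88389384-88389574: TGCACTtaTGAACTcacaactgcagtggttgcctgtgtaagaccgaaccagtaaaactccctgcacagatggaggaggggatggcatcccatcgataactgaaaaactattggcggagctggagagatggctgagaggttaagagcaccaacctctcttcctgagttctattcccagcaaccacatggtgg

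In Zan the peak holds 1 exact repeat with a spacing of 1, AGGTCAgAGGTCA, 118 kb from the gene start, at the 53.8th percentile. The Ankrd44 peak, 98.8 kb from the start, has 3 half-sites in a row that read as an exact repeat with spacing 2, AGTTCAatGGTTCA, and a second with spacing 5, GGTTCAtcccaGGGTCA. It ranked low in its list, at the 18.9th percentile. The first Pigk element has AGTTCAtaAGGTCA with spacing 2, which begins 73 bp outside the peak, and the second is a tract of the same short unit repeated many times, at the 1.89th percentile. In the strong Tmtc1 peak the best match is AGGTCAatGGTTCC, with 1 mismatch. The weak Acp5 peak near the gene start, on chr9, has the exact repeat AGGTCAgAGGTCA with spacing 1 on the minus strand.

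Peaks found in both lists gave further repeats, 3 of them in the peaks whose rank rose most. They are shown because they lie in elements that were already open with LIF, in contrast to those above.
Pigk, intron 86.1 kb from the start, chr3:152800137-152800324: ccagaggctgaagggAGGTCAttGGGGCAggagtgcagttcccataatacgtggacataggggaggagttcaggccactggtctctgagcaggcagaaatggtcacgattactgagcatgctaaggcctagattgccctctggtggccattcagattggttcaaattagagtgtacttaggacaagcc
Ankrd44, intron 120 kb from the start, chr1:54806125-54806385: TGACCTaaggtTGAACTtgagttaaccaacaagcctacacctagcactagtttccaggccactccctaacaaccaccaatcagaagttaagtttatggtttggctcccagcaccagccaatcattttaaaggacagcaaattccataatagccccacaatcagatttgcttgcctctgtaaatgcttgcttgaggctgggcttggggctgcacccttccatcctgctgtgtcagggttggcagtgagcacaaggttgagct
Acp5, intron of Elavl3, chr9:22041885-22042099: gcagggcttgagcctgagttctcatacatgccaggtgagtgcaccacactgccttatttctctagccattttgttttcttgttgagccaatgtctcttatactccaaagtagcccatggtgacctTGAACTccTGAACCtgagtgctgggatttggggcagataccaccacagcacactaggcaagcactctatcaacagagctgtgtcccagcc
Adgra2, 27.3 kb upstream, chr8:27058099-27058398: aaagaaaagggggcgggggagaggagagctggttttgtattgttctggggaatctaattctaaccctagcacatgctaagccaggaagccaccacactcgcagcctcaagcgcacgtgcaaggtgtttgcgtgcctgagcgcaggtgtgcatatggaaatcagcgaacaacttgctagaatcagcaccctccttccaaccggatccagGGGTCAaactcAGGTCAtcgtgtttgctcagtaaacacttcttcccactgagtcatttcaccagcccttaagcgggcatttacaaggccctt

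The Pigk element with the largest rise has AGGTCAttGGGGCA, a spacing of 2 with 1 mismatch. In Ankrd44 the exact repeat AGTTCAaccttAGGTCA, with a spacing of 5, begins 31 bp outside the peak. The Acp5 element has GGTTCAggAGTTCA with spacing 2 on the minus strand. Adgra2 has its only exact repeat, GGGTCAaactcAGGTCA with spacing 5, in a peak that was open in both states and ranked lower with RA (72.8 to 60.6). A second Acp5 peak, 3.29 kb into the gene, has 3 half-sites in a row, AGGTCAgaGGGTCA overlapping GGGTCAagAGTTCA, and went from the 3.64th to the 13.2nd percentile. Nt5e had no exact repeat, and the peak in its exon sequence had AGCTCAgAGGTCA with 1 mismatch. The RA-list peak at the Adgra2 start, which ranked higher with RA (59.5 to 66.3), also had matches with 1 mismatch, such as AGGTCAaaGGTTAA. The other shared Adgra2 peaks with a match of 1 mismatch all ranked lower with RA. Part of these matches lies in repetitive sequence. In 6 of the 10 RA-list peaks near the 7 genes with an exact repeat, every exact match lay wholly in sequence masked as repetitive in GRCm38, against 30.6% of all such RA-list peaks, and only Acp5, Ankrd44 and Pigk had a match that did not.

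Another gene listed as risen lay within 100 kb of 6 of the 7 genes (42.1 to 99.6%), all but Ankrd44. The share was 17.1% of protein-coding genes, 47.3% (44.3 to 50.4) of listed risen genes and 58.5% (50.7 to 66.0) of the 171 with a change at least as large as Pigk. The largest of these changes next to Acp5 was that of Elavl3, a neuronal RNA-binding protein, at 1.77 ± 0.11 (log2 ± SE), which also holds the Acp5 element above in its intron. Acp5 further had Zfp809 (0.61 ± 0.08) within 100 kb, and Zfp653 (0.42 ± 0.15) with an adjusted p of 0.0649 in the authors' DESeq2 comparison. Beside Pigk lay Ak5, an adenylate kinase, at 2.58 ± 0.48 but with a mean normalized count of 26.8, so the level was far below that of Pigk in the same table. Zan had Epo, the gene of erythropoietin, at 2.46 ± 0.68 and a mean normalized count of 11.4, as well as Trip6 (0.37 ± 0.09) and Srrt (0.29 ± 0.07). Adgra2 had Plpbp (0.26 ± 0.08), Nt5e the pseudogene Gm5066 (0.45 ± 0.14) and Tmtc1 the pseudogene Gm15763 (3.52 ± 1.11), which lies inside Tmtc1 on the opposite strand with a mean normalized count of 5.97. Pgap1, 87.7 kb from Ankrd44, fell by 0.30 on the log2 scale.

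Several of the 7 genes overlap others in the annotation. Brf2 overlaps Adgra2, Ephb4 overlaps Zan and St6galnac5 overlaps Pigk, each on the opposite strand and none in the RNA table. RNA libraries were made with a stranded kit, but the strand setting of the counting is not given in the sources used here, so reads from such partners may be included. Read against elements gained with RA, the 7 genes fell into different classes. Tmtc1 had a gained enhancer region and a strong RA-list-only peak, Zan a gained region and an exact repeat in an RA-list-only peak. Pigk had strong RA-list-only peaks but no gained region, and no repeat was found at those strong peaks. The exact repeats of Pigk, like those of Acp5 and Ankrd44, were found at weaker RA-list-only peaks. In Zan and Acp5 these RA-list-only matches lay wholly in masked repetitive sequence, unlike those of Ankrd44 and part of those of Pigk. Adgra2, with the largest rise in RNA, and Nt5e had no gained region within 100 kb. They also had no strong RA-list-only peak and no exact repeat in an RA-list-only peak there.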

How the data were processed

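E14 cells in 2 states were analysed, with 3 RNA-seq libraries and 1 ATAC-seq library per state, and 1 ChIP-seq library per mark. Per the labels and the paper's methods, reads were mapped to GRCm38. The submitters' processing notes name STAR 2.5.1b, BWA, SAMtools, MACS2 and DESeq2. The authors' deposited RNA table lists per gene the normalized signal averaged over libraries, the log2 fold change, its standard error, the Wald score and p-values from DESeq2. It holds only genes with an adjusted p up to 0.1, and its comparison columns, the only RNA values, were used as deposited. The authors' dynamic regions carry an enhancer probability, a fraction, and a lowest p-value. The deposited MACS2 peaks carry a fold enrichment, a ratio to background, a display score and −log10 p and q values. Neither the read counter nor the MACS2 settings are given in the sources used here. Read totals are not known, and intervals are limited to counting error over genes or peaks.

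Gene positions came from GENCODE M21 and sequences from GRCm38.p6. Windows were gene bodies with 100 kb on each side. Peaks were ranked by fold enrichment within their list, since libraries are not on one scale. Repeats were searched in 300 bp at summits with at most 1 mismatch, and intervals are exact Clopper-Pearson at 95%. Besides the 7 members, named genes are all listed genes within 100 kb, listed RA targets, markers and partner genes, the neighbours in order of change and the first places by Wald statistic. The members and lists were chosen with earlier results of these data known. Some items of the RA target list are not reported here. Elements were shown for their repeats or their rise in rank, after their values were seen. The overlap, list-only and repeat functions passed 5 of 5 checks, tested on simulated data. Software comprised matplotlib 3.10.9, pysam 0.24.0, SciPy 1.17.1, pandas 2.3.3 and NumPy 2.4.6 under Python 3.11.15.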

Additional observations from a re-analysis of the deposited data

How the results depend on the processing

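Of 27 alternatives for counts and shares, 16 kept the value within 1.5 times or within its interval, none turned a direction, and the other 11 follow. A cluster 2 region lay near 1 gene (Zan) with 100 kb around the start only, against 2.22% of protein-coding genes. With 300 kb around the body, an alternative chosen after seeing the data, it lay near 4 genes, against 6.30%. An RA-list-only peak lay near 2 genes at a −log10 q of at least 10, against 4.55% of protein-coding genes. Within the 50000 peaks of highest −log10 p it also lay near 2 genes, against 1.54%. The same limits left 124 and 83 LIF-list peaks and 108 and 89 RA-list peaks in the windows, so the RA list held more only at equal list length. Outside masked repeats, an exact direct repeat lay near 3 genes (also added later), and no share over all genes was computed for this. Of genes listed as changed, 425 rose and 126 fell where the log2 change had to reach 1 in size, because the limit keeps fewer genes. Ranking by −log10 p kept the fall at the Zan region (-5.84 against -6.19 percentile points). The 7 ranks by change stayed within 1.5 times. No paired analysis was possible because the deposited RNA table holds no values per library, which also prevents leaving out a replicate. Read depth is unknown, which limits what a peak missing from 1 list can show.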
